A study of Mus musculus with 2 samples.

Results

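The 36 genes described here encode the machinery of mitosis: the cyclins and kinases that start it, the kinetochore and its checkpoint, the spindle, and the midzone where the cell divides. They were chosen by symbol and are 36 of the 23235 genes in the deposited table, and all 36 were found. The series set out to find target genes of Pax7, a paired-box factor of muscle stem cells, in progenitors from young mice. A single polyA RNA-seq library was made from wild-type (WT) neonatal cells and 1 from neonatal cells after deletion of Pax7 (Pax7 KO). Per the labels' protocols, mice carrying Pax7CreER/+ and Pax7flox/flox were used, and deletion was induced by 75 µg of tamoxifen per g of body weight, injected on 5 consecutive days from day 5. The sources used here do not say whether WT animals carried the Cre or floxed alleles or were given tamoxifen. The Cre is driven by Pax7, so deletion can occur only in cells that expressed Pax7 around the injections, and is passed to their progeny. Cells of other lineages keep the gene. Cells were released from hind limb and back muscle with Pronase, enriched by sedimentation, and grown as primary myoblasts on Matrigel in serum-rich medium with bFGF. A sort on surface markers is not described in the sources used here.

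Mitotic genes are switched on together late in the cell cycle. Cyclin A and cyclin B with Cdk1 drive entry, Plk1 and the Aurora kinases build the spindle, and the checkpoint holds back the anaphase-promoting complex (APC/C) until each kinetochore is attached. Quiescent satellite cells express these genes little, and activated myoblasts in growth medium divide and express them. In a bulk culture their RNA therefore depends on how many cells are dividing and on the type of those cells. Fewer cells of a type and less RNA per cell cannot be told apart here.

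With 1 library per genotype, each difference below is one between these libraries, has no replicate check and carries no p-value. Levels are FPKM, fragments scaled to transcript length and library size. The log2 ratio is log2((KO FPKM + 1) / (WT FPKM + 1)). The added 1 understates changes of low genes. The median of the 11751 genes with a mean FPKM of 1 or more had a log2 ratio of 0.42, so summary counts and medians, and some single values, are also given relative to this median gene. Sequencing depth, estimated from the steps between low values, came to about 26100000 fragments for WT and 21600000 for KO. Counting intervals below are 95% Clopper-Pearson intervals of the log2 ratio without the added 1. They are approximate because they rest on this estimate and take each library as unscaled, and they cover counting error only.

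The labelled cell type was checked first. Of 6 myoblast markers, all 6 were lower in KO, and their summed level was 205 FPKM in WT against 95.6 in KO. Myod1 alone gave 90.4 and 17.9 FPKM of these sums, and Des, with a log2 ratio of -0.16, gave 75.8 and 67.6 FPKM. Pax7, which is among the 6, stood at 3.21 FPKM in WT against 0.769 in KO. It is the gene deleted by design, so its value does not check the cell type. Markers of other cell types were detected in both cultures, which does not show that each type was present in both. The 6 endothelial markers summed to 311 FPKM in WT against 613 in KO, with 6 of 6 higher in KO. The 6 adipocyte markers summed to 211 and 1102 FPKM (6 of 6 higher), the 6 fibroblast markers to 156 and 249 FPKM (6 of 6 higher), and the 6 smooth muscle and pericyte markers to 864 and 933 FPKM (6 of 6 higher). Fabp4 alone gave 179 and 899 FPKM of the adipocyte sums. Acta2 alone gave 626 and 642 FPKM of the smooth muscle and pericyte sums. Of all genes above the expression limit, 88.6% were higher in KO as deposited. Relative to the median gene, 6 of 6 endothelial, 6 of 6 adipocyte and 5 of 6 fibroblast markers were above it, whereas 4 of 6 smooth muscle and pericyte markers were below it. Leukocyte markers were low, at 17.7 and 24.8 FPKM over 6 genes with 3 higher in KO and 5 below the median gene. Basal keratinocyte markers went from 1.17 to 39.2 FPKM over 4 genes, with 3 higher and 2 above the median gene. Nearly all of the KO sum came from Krt5 (0.212 FPKM in WT and 18.9 in KO) and Krt14 (0.496 and 19.9). Krt15 was at 0.205 and 0.0545 FPKM, and Trp63 at 0.254 and 0.386 FPKM. No marker stood at the lowest listed value in either library. The part that these marker differences play in the mitotic values was not tested.

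As deposited, the mitotic genes stood at nearly the same FPKM in both cultures, while most of the transcriptome stood higher in KO. Summed over the 36 genes, the level was 596 FPKM in WT against 547 in KO, 0.918-fold. Single levels ran from 2.16 to 65.1 FPKM. In KO, 24 of the 36 genes were lower than in WT and 12 were higher. Over all genes above the expression limit, 11.4% were lower in KO, and over the 8418 genes within the level range of the 36 it was 9.28%. The median log2 ratio was -0.12, against 0.42 over all genes. Relative to the median gene it was -0.54, and 36 of 36 were below it, against 50% of all genes by construction and 45.9% of those within the level range. In all, 7.36% of genes had a relative log2 ratio as low as the median mitotic gene or lower.

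None of the 36 differed by 2-fold in either direction. Over all genes, 5.06% were higher by 2-fold or more and 0.689% were lower as deposited, and 1.35% and 1.45% relative to the median gene. At a limit of 1.5-fold relative to the median gene, 15 of 36 mitotic genes were lower (41.7%) and none higher, against 6.2% and 4.94% of all genes. At the same limit as deposited, no mitotic gene was past it, against 1.43% lower and 30% higher of all genes. By the counting intervals without the added 1, 17 genes were lower in KO, 2 were higher (Anln and Nusap1) and the intervals of 17 included equal FPKM. For 35 of the 36, Nusap1 being the exception, the interval lay below the median gene, which was at 0.50 on that scale. Intervals were made for the 36 genes only, so no share over all genes can be set beside these counts. The value of Nusap1 is uncertain because its locus is shared. Neither list in the authors' deposited table, of 713 higher and 382 lower genes, held any of the 36. Of all genes above the expression limit, only 5.2% were in the higher list and 2.49% in the lower. In that table the highest KO/WT fold in the lower list was 0.700, and the lowest in the higher list was 1.95.

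**Figure D1:**
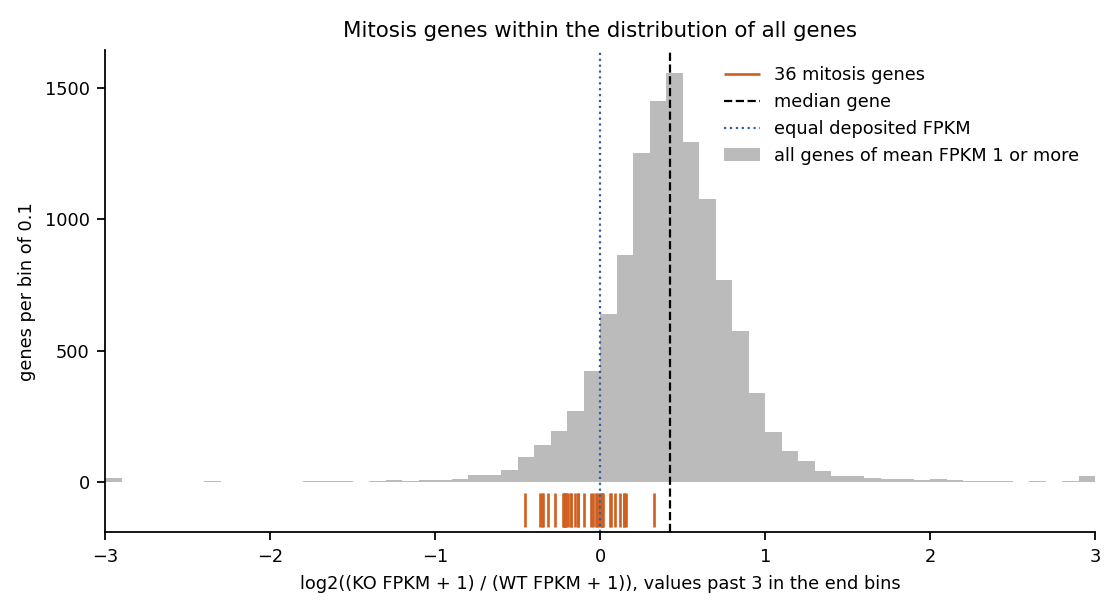
Number of genes (vertical axis, bins of 0.1) by log2((KO FPKM + 1) / (WT FPKM + 1)) on the horizontal axis, with each of the 36 mitosis genes as an orange tick under the axis. The ticks run from -0.45 to 0.33, all to the left of the median gene at 0.42 (dashed line), on both sides of equal FPKM (dotted line).

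Among the drivers of mitotic entry, cyclin A2 and cyclin B1 were lower in KO by their counting intervals, and the intervals of Cdk1 and cyclin B2 included equal FPKM. Ccnb1, whose product activates Cdk1 at mitotic entry, was at 34.9 FPKM in WT against 31.2 in KO (counting interval -0.25 to -0.07). Ccna2, the cyclin of S phase and G2, was at 28.4 and 24.2 FPKM (interval -0.32 to -0.13). Cdk1, the catalytic subunit they share, was at 18.9 FPKM in WT against 19.8 in KO (interval -0.10 to 0.24). Ccnb2, the second B-type cyclin, was at 16.2 and 16.4 FPKM. Set against Cdk1 within each library, which needs no scaling between libraries, Ccna2 stood at 1.5 times its FPKM in WT and 1.22 times in KO. Ccnb1 stood at 1.85 and 1.58 times. The log2 differences between these ratios, KO minus WT, were -0.30 for Ccna2 (approximate 95% counting interval -0.49 to -0.10) and -0.23 for Ccnb1 (-0.42 to -0.04). For Ccnb2 the ratio to Cdk1 was 0.858 and 0.827, with an interval of -0.29 to 0.18 that includes no difference. Gene pairs here and below were chosen with the values known, so their intervals do not test a difference. The row of Ccna2 shares its locus with Exosc9, an exosome subunit, which was at 10.5 and 11.7 FPKM. The sum of both rows had a log2 ratio of -0.11, against -0.22 for Ccna2 alone, so the lower value of Ccna2 and its ratio to Cdk1 are uncertain. Foxm1, a forkhead factor that activates genes of G2 and mitosis, was at 9.40 FPKM in WT against 7.35 in KO, a log2 ratio of -0.32 and of -0.74 relative to the median gene. It shares its locus with a row of under 1 FPKM, and the sum of both rows had a log2 ratio of -0.32.

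Of the 4 genes grouped here as mitotic kinases, Plk1, Aurkb and Ttk were among the 4 lowest log2 ratios of the set, and Aurka was not. The kinases Cdk1 and Bub1, grouped under other roles, had log2 ratios of 0.06 and 0.15. Plk1 (chromosome 7, 129302951 to 129313389, mm9), the polo-like kinase of centrosome maturation and spindle assembly, was at 24.5 FPKM in WT against 17.6 in KO, 1.39-fold lower. Its log2 ratio of -0.45, or -0.87 relative to the median gene, was the lowest of the 36 (counting interval -0.60 to -0.35); without the added 1, that of Ttk was lowest, at -0.48. Ttk, the kinase that starts checkpoint signalling at unattached kinetochores, was at 3.01 and 2.16 FPKM, 1.40-fold lower. Its interval of -0.80 to -0.16 is wide because only about 226 and 134 fragments lay behind it. Aurkb (chromosome 11, 68859145 to 68865164), the kinase that corrects faulty attachments, was at 15.9 FPKM in WT against 12.1 in KO, 1.31-fold lower (interval -0.56 to -0.22). Aurka, its paralog at the spindle poles, was at 12.2 and 12.3 FPKM (interval -0.16 to 0.18). Aurkb thus stood at 1.30 times the FPKM of Aurka in WT and at 0.990 times in KO. The log2 difference was -0.40 (approximate interval -0.63 to -0.16), for a pair chosen with the values known. Tpx2, the spindle protein that binds and activates Aurora A, was at 17.7 FPKM in WT against 15.2 in KO, and its ratio to Aurka went from 1.45 to 1.24 (interval of the log2 difference -0.43 to -0.02). Plk1 and Ttk had KO/WT folds of 0.719 and 0.716, and the highest fold in the lower list of the authors' deposited table was 0.700. That list does not rest on such a fold alone. Cit, a further cytokinesis gene, had a fold of 0.664 and was not in it.

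**Figure D2:**
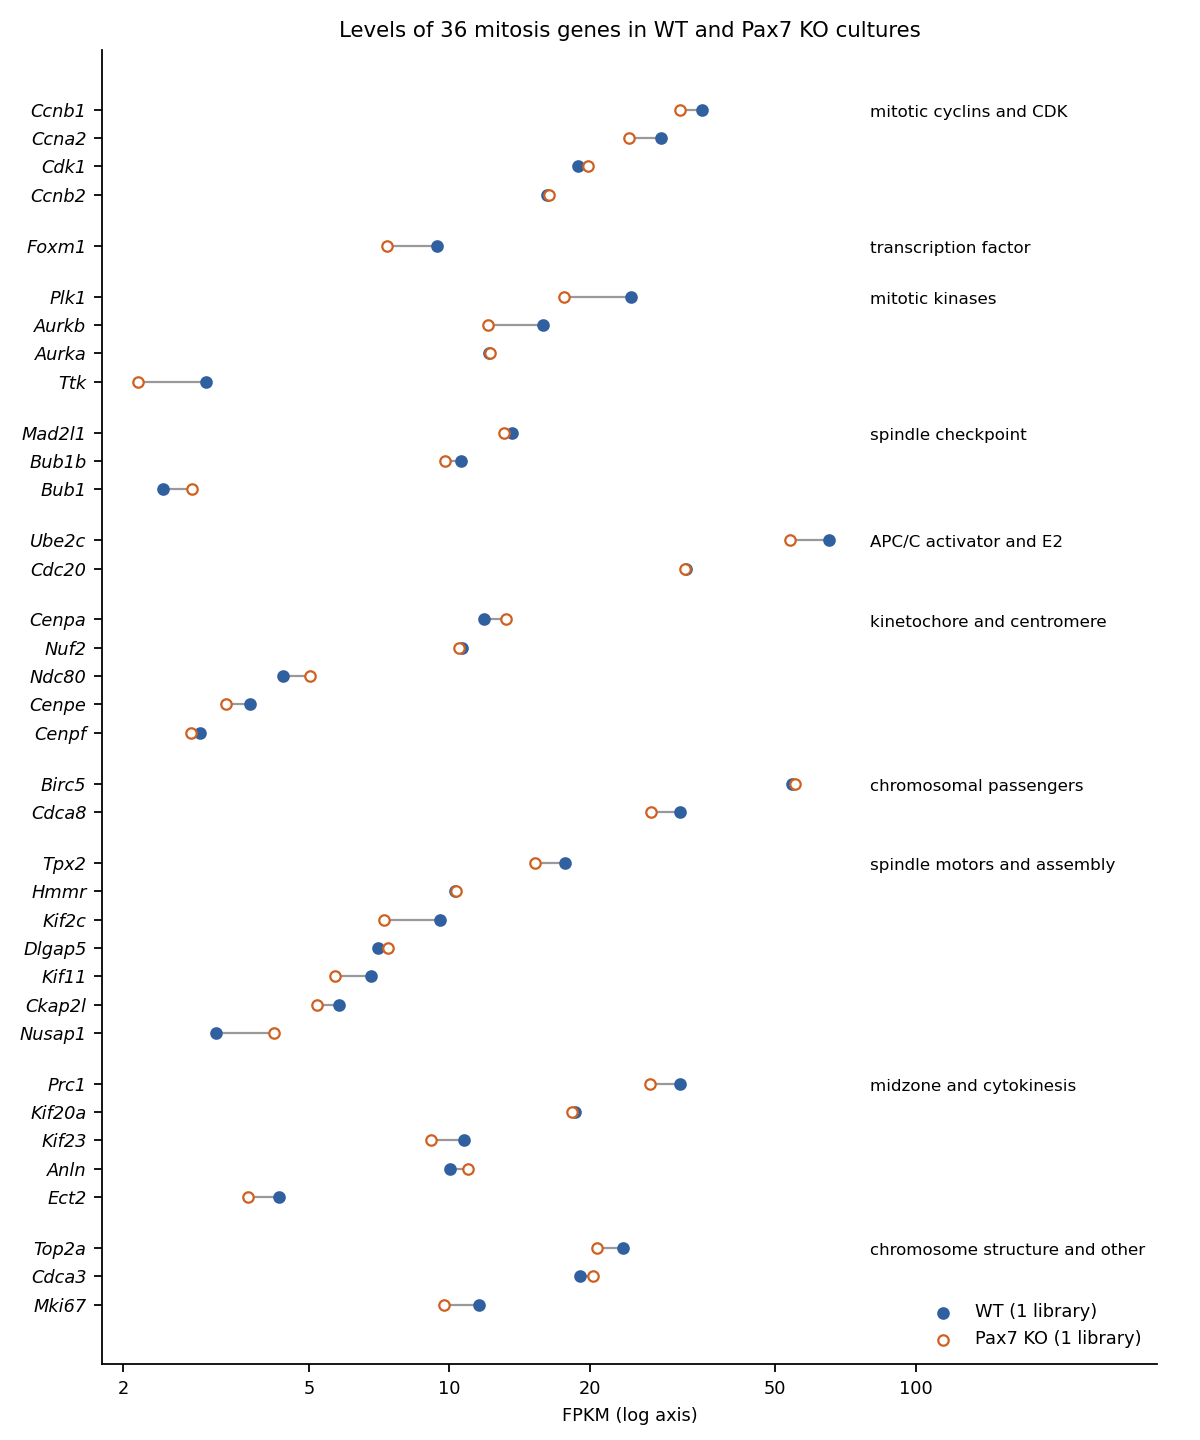
FPKM of each of the 36 genes on a log axis, grouped by role and ordered by the WT level, with WT as a filled blue point and Pax7 KO as an open orange point (1 library each, no error bar). The widest gaps are those of Ttk, Plk1, Nusap1, Kif2c and Aurkb, and the points of Cdc20, Aurka, Hmmr, Ccnb2 and Birc5 nearly coincide.

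The chromosomal passenger complex joins Aurora B with Incenp, survivin and borealin at the centromere, and its genes did not share 1 ratio. Birc5, which encodes survivin, was among the most abundant of the 36, at 54.4 FPKM in WT against 55.0 in KO (interval -0.10 to 0.13). Cdca8, which encodes borealin, was at 31.2 and 27.1 FPKM (interval -0.32 to -0.08). Against Birc5, Cdca8 went from 0.574 to 0.493 times (interval of the log2 difference -0.38 to -0.05) and Aurkb from 0.292 to 0.220 times (-0.61 to -0.20). Incenp, the scaffold of the complex and not one of the 36, was at 25.4 FPKM in WT against 19.0 in KO, a log2 ratio of -0.40.

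By role medians, kinetochore and checkpoint genes lay closest to equal FPKM, at log2 ratios of -0.02 and -0.05. Cenpa, the histone H3 variant that marks the centromere, was at 11.9 FPKM in WT against 13.2 in KO. Ndc80 and Nuf2 form 1 arm of the complex that grips microtubules. They were at 4.41 and 10.6 FPKM in WT, and at 5.02 and 10.5 FPKM in KO. The ratio of Nuf2 to Ndc80 was 2.41 in WT and 2.09 in KO, with an interval of the log2 difference of -0.52 to 0.10. Cenpe, a kinetochore kinesin, was at 3.74 and 3.33 FPKM (interval -0.33 to -0.01), and Cenpf, a large coiled-coil protein of the outer kinetochore, at 2.92 and 2.80 FPKM. The 5 genes of this group had log2 ratios between -0.13 and 0.15, and the intervals of 4 included equal FPKM.

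Of the checkpoint genes, Bub1b, which encodes the APC/C inhibitor BubR1, was at 10.6 FPKM in WT against 9.81 in KO. Bub1, the kinase related to it, was at 2.44 and 2.80 FPKM. Mad2l1, which encodes the Mad2 protein that binds Cdc20, was at 13.6 and 13.1 FPKM. The counting intervals of all 3 included equal FPKM. The ratio of Bub1b to Bub1 went from 4.34 to 3.50, a log2 difference whose interval, -0.62 to -0.00, ended at 0. Downstream of the checkpoint, Cdc20, the APC/C activator, was at 32.2 FPKM in WT against 32.1 in KO (interval -0.11 to 0.10). Ube2c, the ubiquitin-conjugating enzyme of the APC/C, was the most abundant of the 36, at 65.1 FPKM in WT against 53.8 in KO (interval -0.39 to -0.17). Relative to Cdc20, Ube2c stood at 2.02 times in WT and 1.68 times in KO (interval of the log2 difference -0.42 to -0.12). Cdc20 shares its locus with Elovl1, a fatty acid elongase at 67.5 and 74.6 FPKM, so its own share of the fragments is uncertain.

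The 7 spindle genes had log2 ratios from -0.36 to 0.33, of which the highest, that of Nusap1, is uncertain, and the next was 0.06. Kif2c, a kinesin that shortens microtubules at centromeres, was at 9.56 FPKM in WT against 7.26 in KO, a log2 ratio of -0.36 (interval -0.57 to -0.23). Kif11, the motor that separates the spindle poles, was at 6.79 and 5.69 FPKM (interval -0.41 to -0.10). Ckap2l, a spindle-associated protein, was at 5.79 and 5.20 FPKM. Hmmr and Dlgap5, which bind spindle microtubules, were at 10.3 and 7.03 FPKM in WT and at 10.4 and 7.38 FPKM in KO, and their intervals included equal FPKM. Nusap1 (chromosome 2, 119435268 to 119475896), which bundles microtubules near chromosomes, had the highest ratio of the 36. It was at 3.16 FPKM in WT against 4.21 in KO, a log2 ratio of 0.33, which is still -0.10 relative to the median gene. Its locus is shared with Oip5, a centromere factor that loads Cenpa, at 3.45 FPKM in WT against 2.52 in KO. Both rows summed to 6.60 and 6.73 FPKM, a log2 ratio of 0.02. The value of Nusap1 alone is therefore uncertain.

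At the midzone, where cytokinesis takes place, 4 of 5 genes were lower in KO, against 11.4% of all genes. The intervals of 3 of the 5 lay below equal FPKM. Prc1, which crosslinks antiparallel microtubules, was at 31.3 FPKM in WT against 26.9 in KO (interval -0.31 to -0.13). Kif23, the motor of the centralspindlin complex, was at 10.8 and 9.16 FPKM (interval -0.38 to -0.09), and its ratio to Prc1 was 0.344 in WT and 0.340 in KO. Ect2, the exchange factor that activates RhoA for the contractile ring, was at 4.31 and 3.70 FPKM (interval -0.43 to -0.01). Kif20a, a midzone kinesin, was at 18.6 and 18.3 FPKM, with an interval of -0.14 to 0.08 that includes equal FPKM. It shares its locus with Brd8 and Cdc23, and the sum of the 3 rows had a log2 ratio of 0.19, or -0.23 relative to the median gene. Anln, the ring scaffold anillin, was at 10.0 FPKM in WT against 11.0 in KO (interval 0.01 to 0.25). Mki67, the proliferation marker that coats mitotic chromosomes, was at 11.6 and 9.76 FPKM (interval -0.33 to -0.17). Top2a, the topoisomerase that untangles chromatids, was at 23.6 and 20.7 FPKM (interval -0.26 to -0.11), and the ratio of Mki67 to Top2a was 0.490 and 0.470. Cdca3, a regulator of mitotic entry, was at 19.1 FPKM in WT against 20.4 in KO.

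**Figure D3:**
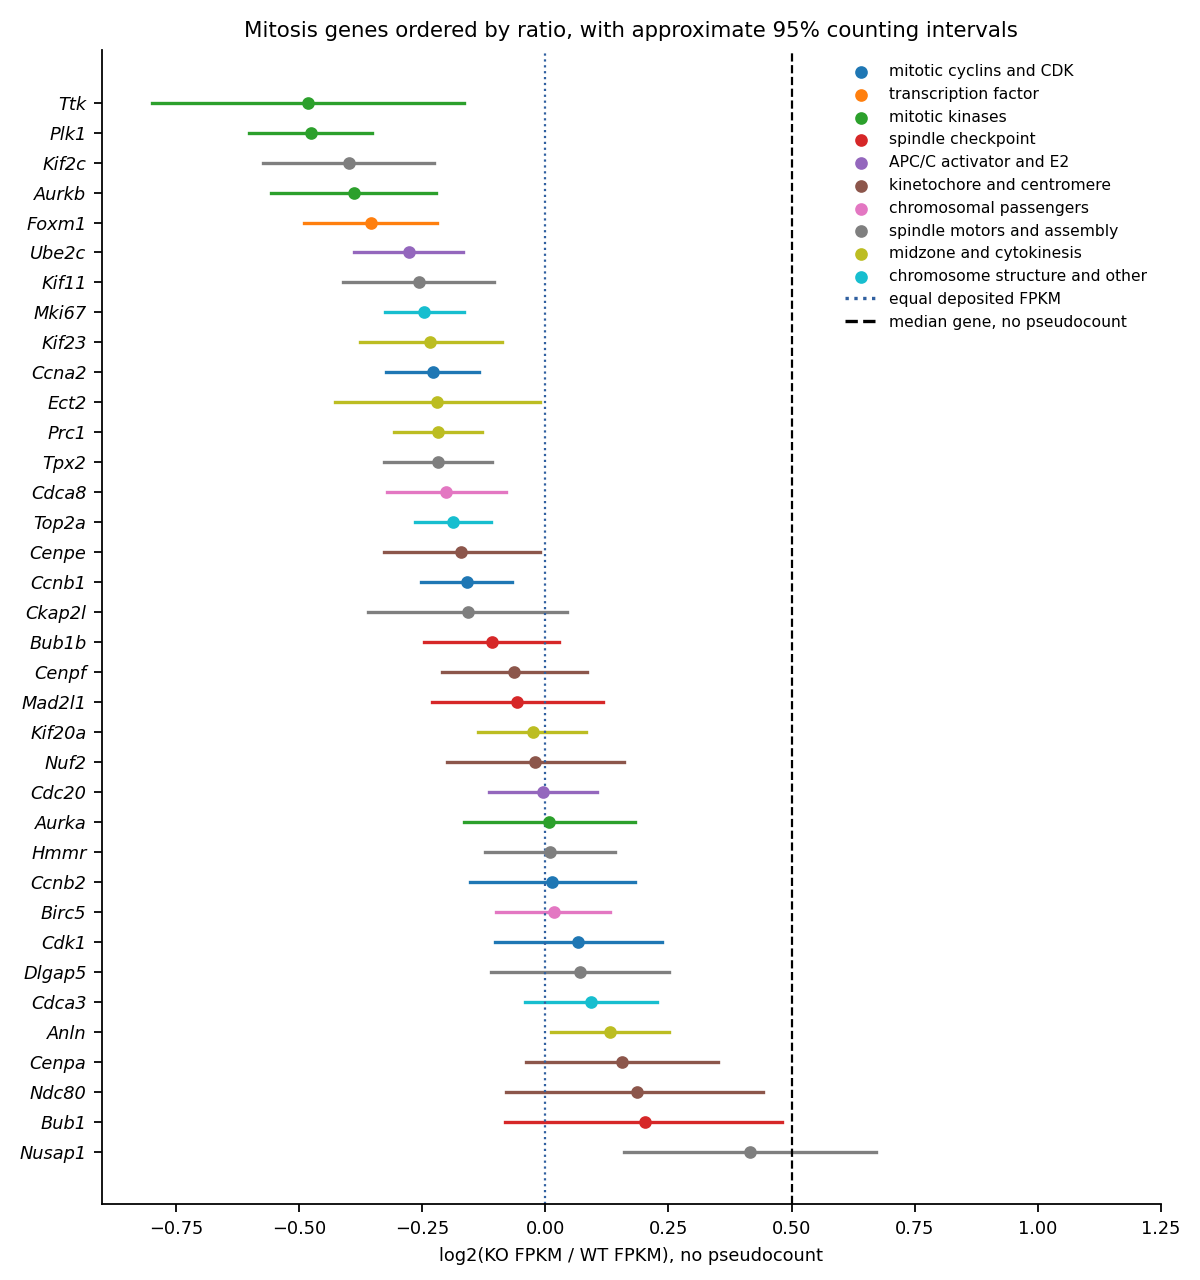
log2(KO FPKM / WT FPKM) without a pseudocount for each of the 36 genes (points, coloured by role) with approximate 95% counting intervals (bars). The bars of 17 genes lie below equal FPKM (dotted line), 2 lie above it, and that of Nusap1 alone reaches the median gene at 0.50 (dashed line).

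Within the set, the ratio showed little relation to level or length. Across the 36 genes, which are not independent, the log2 ratio and the log2 mean FPKM had a Pearson r of -0.18, and the log2 ratio and log2 length of the longest annotated transcript an r of 0.06. The first was 0.16 over the 11751 genes above the expression limit, and the second was -0.10 over the 10686 of them with a length. The order of levels was nearly the same in both libraries (Pearson r of log2(FPKM + 1) 0.99, Spearman rho 0.98). Of 16 pairs of genes set against each other within libraries, those not named above were Plk1 with Prc1 (0.782 in WT and 0.655 in KO), Cenpe with Cenpf (1.28 and 1.19), Tpx2 with Nusap1 (5.61 and 3.62) and Ccnb1 with Ccnb2 (2.15 and 1.91). The pairs were chosen with the values known, so their intervals do not test a difference. The ratio of Tpx2 to Nusap1 is uncertain, because Nusap1 shares its locus with Oip5.

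The promoters of these genes were read because mitotic genes are known to share 2 elements: the cell cycle homology region (CHR), bound by the DREAM and MuvB complexes, and CCAAT boxes, bound by NF-Y. RefSeq promoters (GRCm38.p6, 250 bases before to 50 after the annotated start) were matched for 30 of the 36. CHR was searched as TTTGAA or TTCGAA and the CCAAT box as CCAAT, each on both strands. Of the 30 genes, 24 (80%) held a CHR match, against 21.7% of all 27025 genes with a promoter and 16.1% of the 8279 that were above the expression limit. A CCAAT match was found in 23 (76.7%), against 41.1% and 42.8%. Both were found in 21 (70%), against 9.65% and 7.96%. In 22 genes a CHR match began within 50 bases before the start or downstream of it. This position was counted for the 30 genes only, so no share over all genes can be set beside it. Boxes on the same strand with first bases 31 to 35 apart, a spacing chosen after the windows were seen, occurred in 7 of 30 (23.3%) and in 1.07% of all genes and 1.99% of those above the limit. A match is a run of letters and says nothing of binding in these cells.

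Plk1 is printed for the lowest ratio and Nusap1 for the highest. Ube2c is the most abundant gene of the set, and Ccnb2 and Cdk1 carry spaced boxes with a CHR match near the start. Capitals mark the matches. In Ube2c a CCAAT match on one strand overlaps one on the other, and these are printed as a single run of capitals. The windows are chr7:122159185-122159484 (plus strand) for Plk1, chr2:164769679-164769978 (plus) for Ube2c, chr9:70421505-70421804 (minus) for Ccnb2, chr10:69352863-69353162 (minus) for Cdk1 and chr2:119618048-119618347 (plus) for Nusap1, each read 5′ to 3′ on the strand of the gene.
Plk1: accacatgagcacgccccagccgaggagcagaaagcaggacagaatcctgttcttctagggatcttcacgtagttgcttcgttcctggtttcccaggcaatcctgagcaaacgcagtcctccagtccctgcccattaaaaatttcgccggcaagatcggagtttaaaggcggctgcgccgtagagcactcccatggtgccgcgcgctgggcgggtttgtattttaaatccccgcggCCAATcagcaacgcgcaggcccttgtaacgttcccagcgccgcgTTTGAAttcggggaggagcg
Ube2c: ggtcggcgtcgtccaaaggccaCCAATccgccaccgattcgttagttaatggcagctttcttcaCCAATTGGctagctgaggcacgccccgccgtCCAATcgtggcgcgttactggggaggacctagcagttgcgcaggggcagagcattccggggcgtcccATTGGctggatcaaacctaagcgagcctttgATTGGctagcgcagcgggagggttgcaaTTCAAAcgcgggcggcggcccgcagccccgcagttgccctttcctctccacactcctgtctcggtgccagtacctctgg
Ccnb2: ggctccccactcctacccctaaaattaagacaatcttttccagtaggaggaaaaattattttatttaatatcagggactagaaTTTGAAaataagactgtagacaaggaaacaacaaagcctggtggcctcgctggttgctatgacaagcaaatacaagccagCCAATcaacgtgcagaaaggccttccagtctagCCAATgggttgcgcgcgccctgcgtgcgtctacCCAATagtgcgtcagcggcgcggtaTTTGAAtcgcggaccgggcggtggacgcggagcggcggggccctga
Cdk1: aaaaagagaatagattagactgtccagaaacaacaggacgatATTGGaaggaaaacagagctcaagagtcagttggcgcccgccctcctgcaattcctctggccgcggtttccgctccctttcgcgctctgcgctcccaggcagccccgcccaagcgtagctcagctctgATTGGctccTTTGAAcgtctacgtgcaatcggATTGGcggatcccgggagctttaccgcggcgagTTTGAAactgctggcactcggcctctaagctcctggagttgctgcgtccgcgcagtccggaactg
Nusap1: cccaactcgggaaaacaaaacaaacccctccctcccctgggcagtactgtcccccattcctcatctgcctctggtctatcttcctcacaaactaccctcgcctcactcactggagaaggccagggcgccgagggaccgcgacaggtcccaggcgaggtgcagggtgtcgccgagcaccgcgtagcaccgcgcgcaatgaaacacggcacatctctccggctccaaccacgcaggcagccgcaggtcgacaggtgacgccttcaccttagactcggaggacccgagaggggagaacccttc

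In Ccnb2 the 3 CCAAT boxes began at -87, -54 and -21 from the start, followed by a CHR match at 5. Cdk1 carried boxes on the other strand at -80 and -48, and CHR matches at -71 and -15. Plk1 had a box at -14 and a CHR match at 31. No match lay in the windows of Nusap1, Nuf2, Mad2l1 and Birc5. The ratios of genes with and without matches overlapped. The 21 genes with both motifs had log2 ratios of -0.45 to 0.15 (median -0.13), and the 4 with neither of -0.05 to 0.33 (median -0.00).

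**Figure D4:**
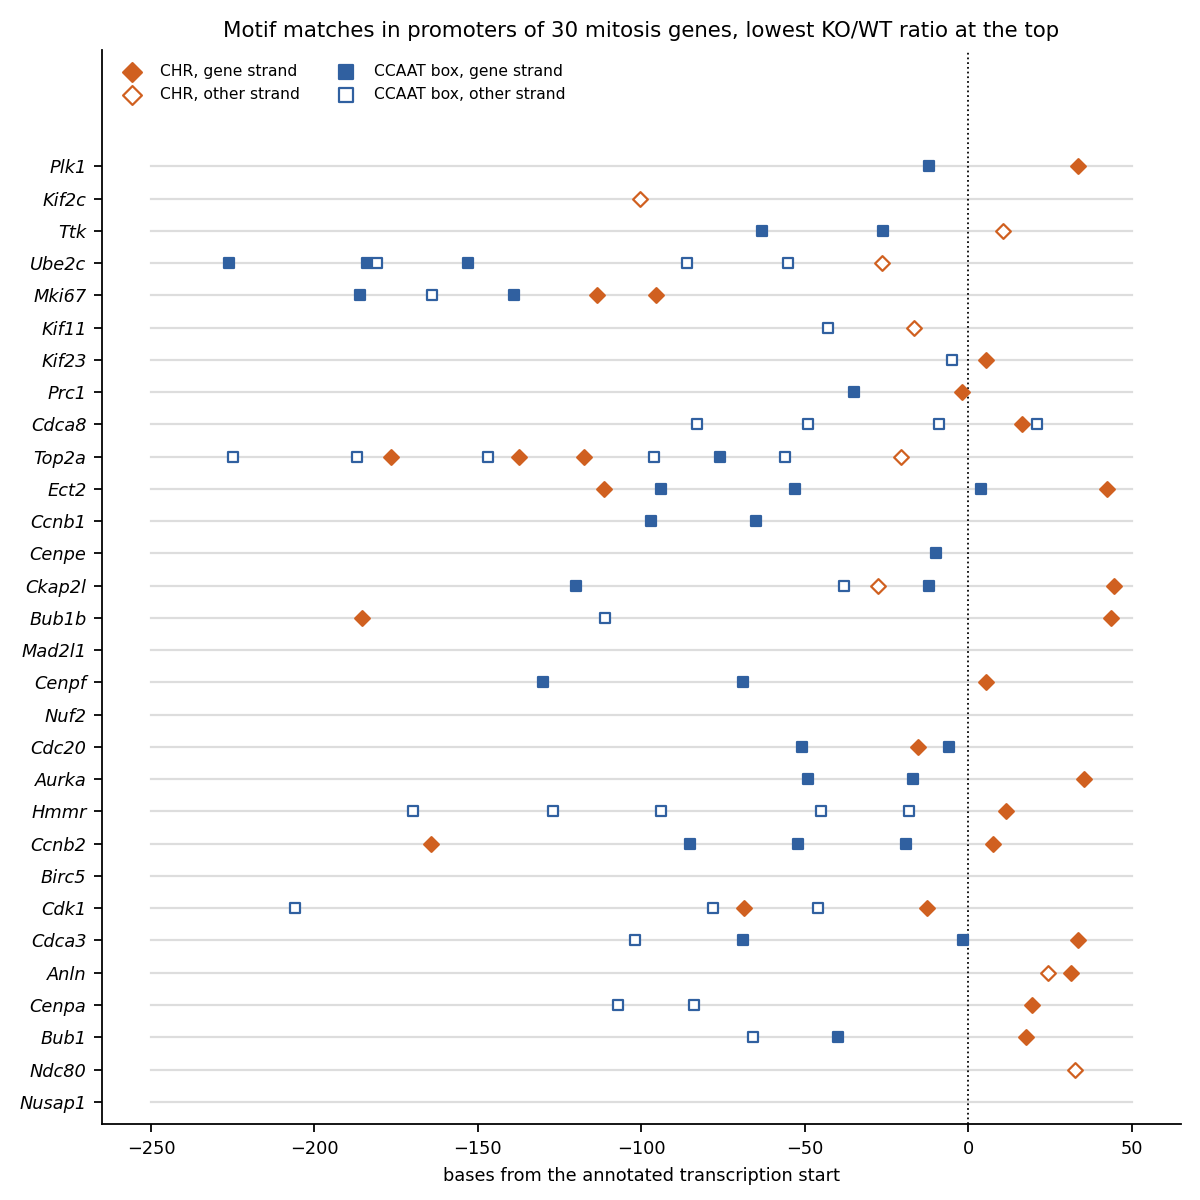
Position of CHR (orange diamonds) and CCAAT (blue squares) matches in bases from the annotated start for 30 of the genes, filled on the strand of the gene and open on the other, with the lowest log2 ratio at the top. In 22 genes a CHR match begins within 50 bases before the start or downstream of it, and 4 genes have no match of either kind.

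Other genes of the division machinery were taken from lists of 108 further genes, of which 106 were above the expression limit. They had a median log2 ratio of 0.03 as deposited and of -0.39 after subtracting the median gene, and 90 of 106 were below that gene. As deposited, 47 were lower in KO and 59 higher, 1 was at least 2-fold higher and none lower. That gene was Zwint, a kinetochore linker, at 9.21 FPKM in WT against 20.1 in KO, with a log2 ratio of 1.05, or 0.63 relative to the median gene. After subtraction of the median gene, 2 of the 106 were lower by 2-fold or more, near the share of 1.45% over all genes. The 2 were Gsg2, which encodes the histone kinase haspin, at 2.45 and 1.23 FPKM, and Ccnf, an F-box cyclin, at 6.20 and 3.66 FPKM. Each shares its locus with another row.

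The lists differed in their medians. Those of spindle and cytokinesis genes (19 genes) had a median log2 ratio of -0.13, close to that of the 36. Kif15 and Kif18b, spindle kinesins, were lowest, at -0.43 and -0.41, and Ndel1 and Numa1, dynein-linked proteins also used outside mitosis, were highest, at 0.82 and 0.30. Mitotic entry genes (17) had a median of -0.00, with Cks2, a Cdk1-binding subunit, at 0.55 and the phosphatase Cdc25c at 0.40 as the highest. Cohesion and condensation genes (20) had a median of 0.00. Incenp and Espl1, which encodes separase, were lowest at -0.40 and -0.37, and Ncaph2 and Stag2, subunits of condensin II and cohesin, highest at 0.52 and 0.47. The further centromere and kinetochore genes (28) had a median of 0.01, with Oip5 at -0.34, Cenpt, an inner kinetochore protein, at 0.70 and Zwint at 1.05. The further checkpoint genes (7) had a median of 0.23, with Kntc1, a subunit of the RZZ complex, at -0.38 and the ATPase Trip13 at -0.24, while Bub3 and Mad2l1bp were at 0.38 and 0.51.

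Genes of the APC/C (15) had a median of 0.34, and 8 of 15 were below the median gene. Its subunits Anapc13 and Anapc10 were at 0.90 and 0.77. Fbxo5, which encodes the APC/C inhibitor Emi1, was the 1 gene of that list that was lower in KO as deposited, at 6.48 and 4.85 FPKM, and Ube2s, a second ubiquitin-conjugating enzyme, was next at 0.13. DNA replication genes (43) had a median of 0.00, or -0.42 relative to the median gene, with 42 of 43 below it. Rrm2 and Cdc6 were lowest at -0.92 and -0.70, and Gins4 and Orc6 highest at 0.54 and 0.41. The lower list of the authors' deposited table held 5 of the 106 further mitosis genes, namely Ccnf, Gsg2, Kif15, Kntc1 and Mybl2, and its higher list held Zwint. For comparison, 2.49% of all genes above the limit were in the lower list and 5.2% in the higher. Mybl2, a Myb factor that acts with MuvB and was named after its value was seen, was at 14.2 FPKM in WT against 9.69 in KO.

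**Figure D5:**
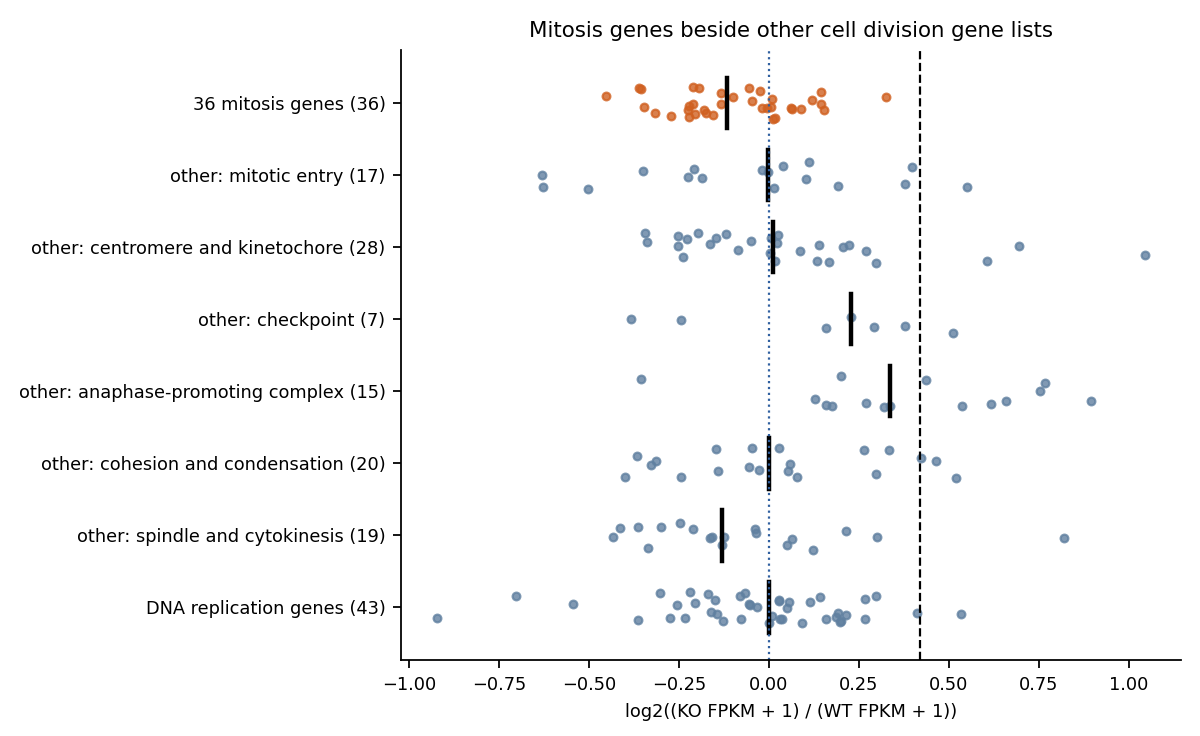
Log2((KO FPKM + 1) / (WT FPKM + 1)) of each gene (points, jittered vertically) in the 36 mitosis genes and in 7 other lists, with list medians as black bars and gene numbers in parentheses. Medians run from -0.13 to 0.34, all to the left of the median gene at 0.42 (dashed line), and the APC/C list lies nearest to it.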

How the data were processed

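The authors deposited 1 FPKM column per genotype, per the file headers, and lists of higher and lower genes that add the fold (KO over WT FPKM). Build mm9 and the tools Cuffdiff 2.1.1, Cufflinks 2.1.1 and TopHat2 2.0.9 are named in the submitters' processing notes, without their use. Both columns were used as deposited, and the rows of 1 repeated symbol were summed. Ratios used a pseudocount of 1, and the reference was the median of genes with a mean FPKM of 1 or more. The lowest listed value was 0.001. There is 1 library per genotype, so no test was run.

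Depth was estimated from the step of FPKM times length in transcripts over 2000 nt (longest GENCODE M21 transcript, 89.7% of symbols matched). The fit was loose, with a mean cosine of 0.38 in WT and 0.37 in KO, where exact steps would give 1. The worth of 1 fragment was 1.20 times larger in KO by the most frequent ratio of 1223 low genes, whose bin held 176 of them. Length cancels in this ratio, but these genes were selected by length and an assumed depth. Fragments per gene used the shortest principal transcript, and gave 134 to 3221 fragments for the 36 genes in a library. Intervals are Clopper-Pearson on these estimated fragments, and those of gene pairs use a normal approximation. Calculations were tested on simulated data. These had exact steps, and their intervals used the true depths, so they do not check the loose fit or the intervals that rest on it. Deposited starts were read as counted from 0, since end minus start equalled the RefSeq gene length in 6923 of 17032 loci and was 1 short in 436.

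The 36 genes, the other lists and the tests were chosen with earlier results of these data known. The rule named all 36 genes, and from each other list the 2 highest and the 2 lowest ratios. A gene that this rule selects is not reported here. Older symbols were matched through RefSeq. Software was scipy 1.17.1, pandas 2.3.3, numpy 2.4.6, matplotlib 3.10.9 and Python 3.11.15.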

Additional observations from a re-analysis of the deposited data

How the results depend on the processing

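The direction of the mitotic genes as deposited depends on how the libraries are scaled, because the median gene lies at 0.42. The median log2 ratio of -0.12 became -0.54 with centring on the median gene, -0.53 with upper-quartile scaling and -0.33 when scaled by the worth of 1 fragment (chosen after seeing the data). The number of genes lower in KO went from 24 to 36, 36 and 35. Scaling by the worth of 1 fragment compares estimated fragments without correcting for the smaller estimated depth of KO. Its values therefore also reflect depth and are not those of an alternative normalization. Relative to the median gene, the median of -0.54 became -0.25 without a filter on low values, where the median gene lay at 0.14 and 32 of 36 were below it. Under the other settings that were run (pseudocounts of 0.1, 0.5 and none, a mean FPKM of 5 or more, upper-quartile scaling, a reference without small RNA rows and shared loci, and the highest row of a repeated symbol) 36 of 36 were below it. No gene passed 2-fold under any of these settings; 15 were lower at 1.5-fold with centring, a combination chosen after seeing the data. The medians of the further mitosis genes (0.03) and DNA replication genes (0.00) changed sign with centring (-0.39 and -0.42) and upper-quartile scaling (-0.38 and -0.47). These shifts follow from the scaling itself. Without the mitotic genes that share a locus, an alternative chosen after seeing the data, their medians were -0.13 and -0.55 relative to the median gene. A median was counted as moved when it differed by more than 0.15, the median width of a counting interval on either side. No replicate could be left out. No paired analysis was possible because each genotype has 1 library. Depth gives intervals between 0.08 and 0.32 wide on either side of a log2 ratio, so differences between most neighbouring genes in the order are not resolved.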
